A study of Mus musculus with 6 samples.

Results

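The cytosolic ribosomal protein genes code for the proteins of the ribosome that works outside mitochondria. They were chosen by gene symbol, as protein-coding genes named Rpl or Rps with a number and at most 1 further letter, without the S6 kinase genes and the mitochondrial ribosomal genes. The rule found 77 genes among 21887 protein-coding genes, 47 of the large subunit (Rpl) and 30 of the small subunit (Rps). The family was taken up with earlier results of these peak lists known, in which Rpl13a had been singled out as narrower after succinate was added to FK866, so its values by group are given as a description. Group 2 innate lymphoid cells (ILC2s), which lack antigen receptors and make IL-5 and IL-13, came from mouse colon and were grown in vitro. The groups were cells given FK866 plus succinate, cells given FK866, and Control cells, and all 3 groups grew with IL-2 and IL-7, which keep lymphocytes alive, and with the alarm cytokines IL-25 and IL-33. FK866 inhibits NAMPT, the enzyme that recycles nicotinamide into NAD, and succinate is an intermediate of the tricarboxylic acid cycle. Each group had 2 libraries, and the labels do not say whether these came from separate cultures or animals, so their spread may be technical. Doses, times and mouse strain were not given.

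CUT&Tag cuts and sequences DNA next to a protein or histone mark that an antibody has bound. No source used here names the antibody, so what a peak marks is unknown, and peaks are no measure of transcription. A ribosome joins a small subunit, which reads the messenger RNA, to a large subunit, which forms the peptide bonds. Cells make the subunit proteins in matched amounts, and lymphocytes raise ribosome output when they are activated and grow. Many of these genes start with a run of pyrimidines, the 5′ TOP element, through which the mTOR pathway controls translation of their messenger RNAs, and many hold small nucleolar RNA (snoRNA) genes in their introns.

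Promoter sequences were found for 58 of the 77 genes in the RefSeq promoter table of GRCm38.p6, the assembly with the coordinates of mm10. Of the 8 stretches printed here, 5 are from genes among the 5 largest falls with FK866 plus succinate, from FK866 or from Control. These are Rpl13a, Rps27, Rps15a, Rpl6 and Rps10. Rpl3, which fell most, had no promoter sequence there, and Rpl23, also among the 5 largest falls from Control, is not printed. Another 2 stretches are from genes on the opposite side when succinate was added (Rpl39, Rps9), and 1 is from the gene with the narrowest peak (Rps23). Each stretch runs from 80 bases before the annotated start to the 20th base from it, 5′ to 3′ on the gene's strand. Capitals mark the searched motifs and the first run near the start of a C followed by 4 or more pyrimidines.
Rpl13a, chr7:45128726-45128825, minus strand: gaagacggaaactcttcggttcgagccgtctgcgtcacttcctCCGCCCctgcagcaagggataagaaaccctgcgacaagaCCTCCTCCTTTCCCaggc
Rps27, chr3:90213629-90213728, minus strand: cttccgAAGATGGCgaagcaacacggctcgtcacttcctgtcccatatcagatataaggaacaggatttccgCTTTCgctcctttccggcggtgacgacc
Rps15a, chr7:118116128-118116227, minus strand: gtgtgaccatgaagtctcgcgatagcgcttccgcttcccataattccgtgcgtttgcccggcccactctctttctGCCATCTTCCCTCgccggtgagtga
Rpl6, chr5:121204421-121204520, plus strand: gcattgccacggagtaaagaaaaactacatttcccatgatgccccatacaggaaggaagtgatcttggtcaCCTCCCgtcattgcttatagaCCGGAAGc
Rps10, chr17:27635225-27635324, minus strand: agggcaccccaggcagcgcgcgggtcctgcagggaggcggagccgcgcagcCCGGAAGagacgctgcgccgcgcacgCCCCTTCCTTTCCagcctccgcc
Rpl39, chrX:37085203-37085302, minus strand: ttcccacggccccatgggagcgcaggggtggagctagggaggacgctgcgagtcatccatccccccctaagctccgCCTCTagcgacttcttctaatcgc
Rps9, chr7:3703961-3704060, plus strand: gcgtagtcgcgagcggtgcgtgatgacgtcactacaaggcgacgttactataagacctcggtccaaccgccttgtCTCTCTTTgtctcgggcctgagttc
Rps23, chr13:90923042-90923141, plus strand: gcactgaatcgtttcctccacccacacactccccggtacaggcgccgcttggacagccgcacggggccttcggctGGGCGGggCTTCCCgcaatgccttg
Motifs of the factors ETS, YY1, SP1 and NF-Y, the TATA box and the E-box were searched on both strands of all 300 bases, from 250 before the start to 50 after it. In the stretches shown, Rps10 and Rpl6 hold the ETS letters, Rps27 and Rps15a hold the YY1 letters, and Rpl13a and Rps23 hold the SP1 letters. In Rps15a the pyrimidine run overlaps the YY1 letters, here read on the other strand.

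The ETS letters CCGGAAG occurred in 22 of the 58 promoters (37.9%), against 12.2% of all 17492 promoters. A C exactly at the annotated start with 4 pyrimidines after it occurred in 12 of the 58 (20.7%), against 2.17% of all. Allowed to begin within 10 bases of the annotated start, such a run was found in 31 (53.4%), against 31.0% of all. The SP1 letters GGGCGG were found in 30 promoters (51.7%, against 47.5% of all). The YY1 letters AAGATGGC were in 4 of the promoters (6.90%, against 3.27% of all). The E-box letters CACGTG were in 5 of the promoters (8.62%, against 7.93% of all). The TATA box, searched as TATAAA, was in 5 of the family's promoters (8.62%, against 13.04% of all). The NF-Y letters CCAAT were in 16 (27.6%, against 38.7% of all). Median GC content was 57% both in these 58 promoters and in all promoters. A match of letters is a description of the sequence and not a bound site.

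Peaks were set beside each gene through its lead site, that is the summit in the gene or its 2-kb flanks whose deposited −log10 p ranked highest on average over the 6 lists. Window coverage is the percentage of the 4 kb centred on that site that lay under peaks, and lead peak width is the length of the merged peaks within 250 bp of it. Both measure how far peaks reach and not how high they are. A library pools many cells, so a peak present in fewer cells and a shorter stretch in each cell cannot be told apart. With FK866 plus succinate the lists held 45446 and 56361 peaks, against 40320 and 43468 with FK866 and 50489 and 41023 in Control. Their median peak widths were 618 and 528 bp with FK866 plus succinate, 737 and 651 bp with FK866, and 616 and 723 bp in Control. Peaks with a deposited adjusted p under 0.05 numbered 25187 and 26853 with FK866 plus succinate, 28252 and 26872 with FK866, and 27200 and 28269 in Control. Read depth is unknown, since the lists hold no counts.

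Of the 77 genes, 74 had a peak at the lead site in all 6 libraries (96.1%), against 13557 of 21887 protein-coding genes (61.9%). They were all 30 Rps genes and 44 of the 47 Rpl genes. The other 3, Rpl10l, Rpl32l and Rpl39l, had no peak in the gene or its 2-kb flanks in any library. Rpl10l and Rpl39l are paralogues of Rpl10 and Rpl39 known for their use in the testis. Rpl3l, the muscle paralogue of Rpl3, counted among the 74 through a peak at the end of its neighbour Msrb1, 4079 bp from its own start. The lead sites of Rpl4 and Rpl41 also lay away from their own starts, by 6038 bp near Snapc5 and by 1497 bp near Zc3h10. In 22 of the 74 genes (29.7%) an end of another gene lay within 2 kb of the lead site, so that peak may belong to both genes.

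Median window coverage of the 74 genes was 46.2% and 44.9% with FK866 plus succinate, 48.6% and 49.4% with FK866, and 49.98% and 48.8% in Control. Both FK866 plus succinate values lay below the other 4, and the FK866 and Control values overlapped. Over all 15891 genes with a lead site the medians were 36.7% and 36.2% with FK866 plus succinate, 38.2% and 38.5% with FK866, and 38.1% and 38.5% in Control. The family therefore had wider coverage than the typical gene in every library, and the same 2 libraries were lowest in both sets. Single genes reached from 25.9% (Rpl6, FK866 plus succinate replicate 2) to 80.8% (Rpl7, FK866 replicate 2).

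**Figure D1:**
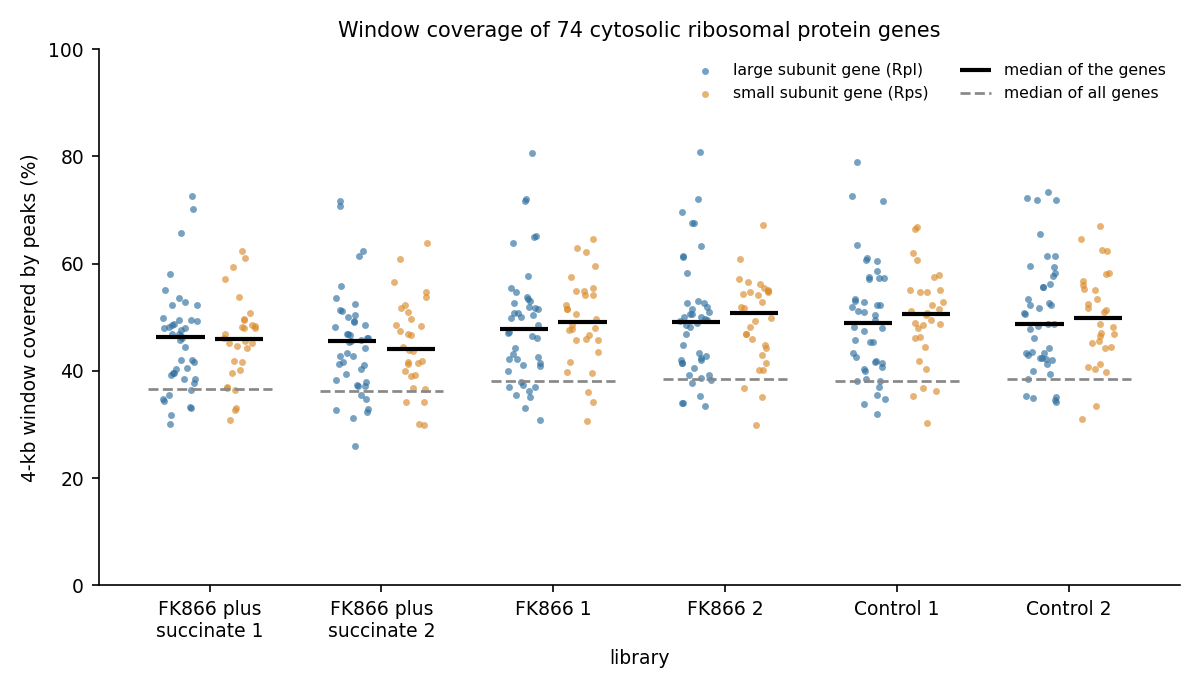
Percentage of the 4-kb window covered by peaks (vertical axis) in each of the 6 libraries (horizontal axis), with a point per gene for 44 large subunit genes (blue) and 30 small subunit genes (orange). Black bars are the medians of the genes and dashed lines the medians of all genes with a lead site. The black bars stand above the dashed line in every library and are lowest in the FK866 plus succinate libraries.

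The lead peak had a median width of 1808 ± 45.3 bp with FK866 plus succinate, 1952 ± 30.1 bp with FK866 and 1956 ± 18.03 bp in Control (mean of library medians, SD, n = 2). For all genes with a lead peak in every library these were 1532 ± 10.6 bp with FK866 plus succinate, 1609 ± 8.49 bp with FK866 and 1608 ± 14.8 bp in Control. The widest peaks, as means over 6 libraries, were at Rpl7 (3028 bp), Rpl3 (2893 bp), Rpl41 (2864 bp), Rpl39 (2638 bp) and Rps19 (2592 bp). Rpl3 helps form the peptidyl transferase centre, Rpl39 lines the exit tunnel, and Rps19 is mutated in Diamond-Blackfan anaemia in humans. The narrowest were at Rps23 (1218 bp), Rpl35 (1343 bp), Rpl4 (1355 bp), Rpl23a (1381 bp) and Rpl5 (1394 bp). The lead peak of Rpl4 is the one near Snapc5. A separate peak at the start of Rpl4 measured 2250 and 2093 bp with FK866 plus succinate, 2272 and 2233 bp with FK866, and 2223 and 2164 bp in Control. The lead site of Rpl41 lay near Zc3h10, in a peak that also covered Rpl41 itself. Rps23 sits at the decoding centre, and Rpl5 is part of the particle that carries 5S RNA into the large subunit. Rps23 measured 1237 and 1194 bp with FK866 plus succinate, 1227 and 1199 bp with FK866, and 1210 and 1242 bp in Control. It differed less between groups than between the libraries of a group. The authors' fold enrichment of the lead peak, a value of each library's own, had family medians of 8.52 and 7.89 with FK866 plus succinate, 7.77 and 7.51 with FK866, and 7.503 and 7.64 in Control. Over all genes with a lead peak these were 8.38 and 8.15 with FK866 plus succinate, 8.31 and 7.87 with FK866, and 8.14 and 8.17 in Control. Folds depend on each library's background and were not tested between libraries.

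In 52 of the 74 genes the gene span and its 2-kb flanks held 1 merged peak in every library. Peaks covered over 90% of the gene body, as a mean over libraries, in 3 genes, Rpl41 (100%), Rps27 (97.7%) and Rps9 (92.6%). These genes are 1059, 982 and 2944 bp long. Covered length, counted over the gene and its 2-kb flanks, had medians of 1919 and 1873 bp with FK866 plus succinate, 2023 and 2034 bp with FK866, and 2085 and 2054 bp in Control. Both FK866 plus succinate values were again the lowest. Over all genes with a lead site the medians were 1891 and 2008 bp with FK866 plus succinate, 1902 and 1948 bp with FK866, and 2038 and 1937 bp in Control, and there the groups overlapped.

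Edges could be oriented for the 52 genes whose lead site lay within 1 kb of their own annotated start, out of 55 with a lead site and a known strand. In 49 of the 52 (94.2%) the peak reached farther downstream, into the gene, than upstream, against 77.6% of the 9879 genes oriented in the same way. The downstream edge lay at a median of 1279 and 1216 bp from the start with FK866 plus succinate, 1369 and 1369 bp with FK866, and 1397 and 1394 bp in Control. Both FK866 plus succinate libraries lay nearer to the start than the other 4. The upstream edge lay at 559 and 520 bp with FK866 plus succinate, 547 and 542 bp with FK866, and 547 and 568 bp in Control, and these ranges overlapped. The groups thus stood apart on the gene side of the peak and overlapped on its outer side. Over all 9221 genes with edges in every library, the downstream medians were 958 and 945 bp with FK866 plus succinate, 1013 and 1022 bp with FK866, and 1009 and 1027 bp in Control. Their upstream medians were 542 and 537 bp with FK866 plus succinate, 551 and 558 bp with FK866, and 547 and 550 bp in Control. Over all genes, too, both FK866 plus succinate libraries had the nearest downstream edges, and there they also had the nearest upstream edges, by a few bp.

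**Figure D2:**
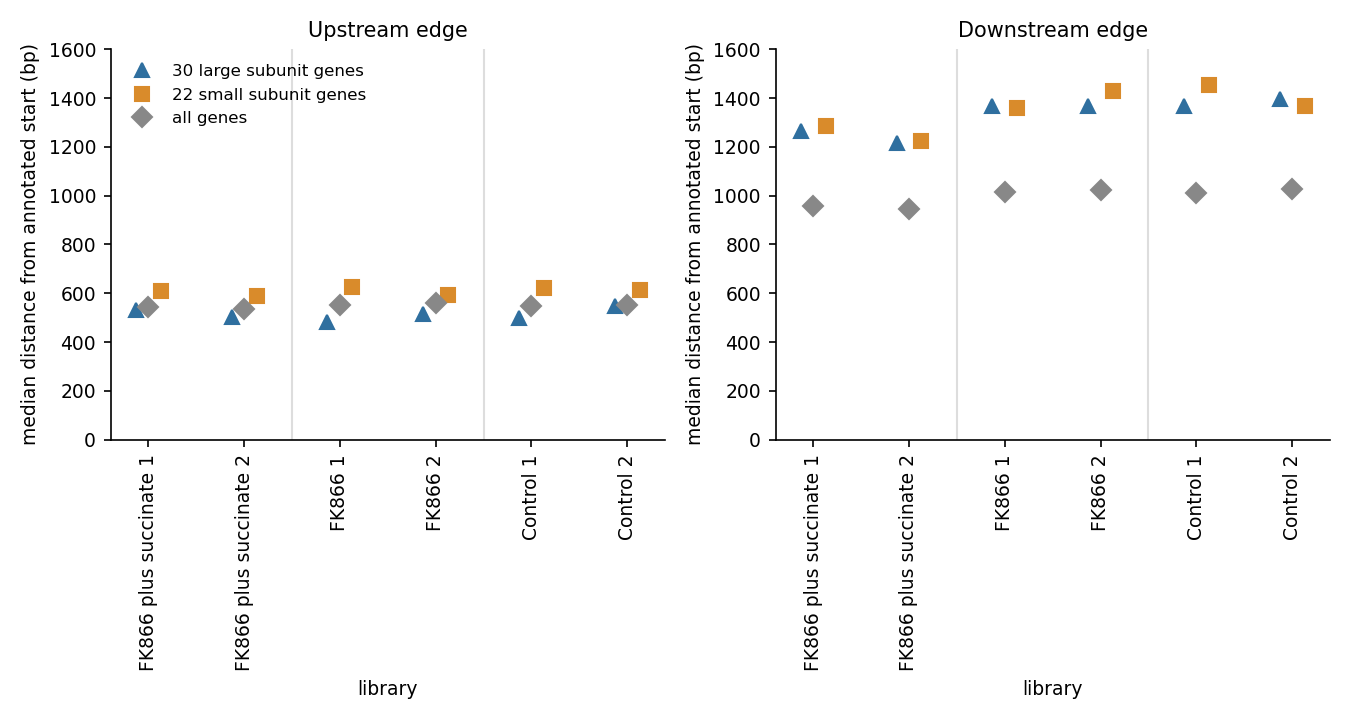
Median distance in bp (vertical axes, from 0) of the upstream (left) and downstream (right) edge of the lead peak from the gene's annotated start, in each library (horizontal axes), for 30 large subunit genes, 22 small subunit genes and 9221 genes in all. Downstream medians of both subunits are lowest in the FK866 plus succinate libraries and stand above those of all genes, while upstream medians of the family lie between 483.5 and 624.5 bp in every library.

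In both subunits the FK866 plus succinate libraries were the lowest 2. Median window coverage of the small subunit genes was 45.9% and 44.2% with FK866 plus succinate, 49.1% and 50.8% with FK866, and 50.6% and 49.9% in Control. Large subunit genes had 46.4% and 45.5% with FK866 plus succinate, 47.8% and 49.1% with FK866, and 48.9% and 48.8% in Control. Group means of these medians differed by −4.96 percentage points in the small subunit and by −2.54 in the large subunit for FK866 plus succinate minus FK866. For FK866 minus Control the differences were −0.29 and −0.33 points. Taken gene by gene, median differences of FK866 plus succinate from FK866 lay closer, at −3.2 points (small) and −2.3 (large). Widths were narrower without overlap in 63.3% of small and 56.8% of large subunit genes, against 40% of all genes. From Control these shares were 70% and 72.7%, against 39.5% of all genes. Lead peak widths were also smallest with FK866 plus succinate, at 1783 ± 43.5 bp with FK866 plus succinate, 1958 ± 34.3 bp with FK866 and 1969 ± 41.4 bp in Control for the small subunit (SD, n = 2). The large subunit had 1838 ± 25.5 bp with FK866 plus succinate, 1939 ± 36.4 bp with FK866 and 1934 ± 12.4 bp in Control. FK866 and Control widths lay within a few bp of each other in both subunits. The difference between the subunits was not tested, since genes are not replicates and an exact permutation test of 2 libraries against 2 cannot give a two-sided p below 0.333.

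The first comparison asks how peaks differed when succinate was given with FK866, FK866 plus succinate against FK866. Window coverage was lower with succinate in 66 of the 74 genes and higher in 8, with a median difference of −2.58 percentage points. The median over all 15168 genes tested was −1.52 points, and 70.5% of them were lower. The test, limma on all 6 libraries with Benjamini-Hochberg adjustment over all genes, called 0 of the 74 genes and 0% of all genes at the 0.05 threshold. Without adjustment, at p under 0.05, 15 of the 74 were lower (20.3%) and 0 higher. Over all genes tested, 11.5% were lower and 293 of 15168 higher. Lead peak widths of the groups did not overlap and were narrower with succinate in 44 of the 74 (59.5%), against 40% of all genes with a lead peak, and wider in 1, against 6.93%. As a median, widths differed by −5.92% in the family and by −3.98% over all genes. Of the 52 oriented genes, 32 had a downstream edge nearer to the start without overlap (background 39%) and 9 an upstream edge nearer to it (background 23.1%). The downstream edge differed by a median of −97.8 bp and the upstream edge by −5.75 bp, against −44.5 and −9.50 bp over all genes.

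These family medians moved together with those of all genes, and the part of the list-wide shift in the family's difference was not tested. Median peaks of whole lists were shorter with FK866 plus succinate than with FK866. Control replicate 1, with a family coverage of 49.98%, had a list median of 616 bp, next to 618 bp in FK866 plus succinate replicate 1. With coverage quantile-normalised over genes, the family's median difference was −0.48 points, which lies −0.80 points from that of all genes. In windows of 1 kb to either side it was −0.83 points, which lies 0.73 points above the median of all genes. Downstream edges of the 52 oriented family genes lay at medians of 1216 to 1397 bp from the start. Over all genes these medians were 945 to 1027 bp. Windows of 1 kb hence largely end before the family's edge, and the turned direction there cannot tell whether the family's lead holds. Among the 59 family genes with a lead peak 1500 to 2500 bp wide the median difference was −2.62 points, against −1.86 points over all 6676 genes in that class.

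Rpl3 had the largest difference. Its coverage was 52.9% and 51.4% with FK866 plus succinate, 71.8% and 72.0% with FK866, and 71.8% and 72.2% in Control. The 2 libraries with succinate stood apart from 4 closely matched ones. The difference from FK866 was −19.7 ± 1.08 points (SE), with an adjusted p of 0.0767 from limma, below which no gene tested went, and above the threshold. On chromosome 15 (mm10) Rpl3 spans 80077781 to 80083406, and its peak ended between 80084153 and 80084185 in all 6 libraries. Its other edge, inside the gene, lay at 80082037 and 80082129 with FK866 plus succinate, at 80080902 and 80080838 with FK866, and at 80080880 and 80080842 in Control. The stretch not under a peak with succinate was thus on the inner side of the peak, over 1 kb from the lead site. In windows of 1 kb to either side, which do not reach it, the difference was 0.58 points from FK866 and 0.33 from Control.

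Rpl13a is a large subunit protein known outside the ribosome for silencing inflammatory messenger RNAs in the GAIT complex of human monocytes. Its coverage was 47.7% and 45.4% with FK866 plus succinate, 65.2% and 63.4% with FK866, and 57.4% and 59.5% in Control, with no overlap between any groups. The difference was −17.7 ± 1.49 points (SE, adjusted p = 0.103 from limma). The lead peak was 1908 and 1814 bp with FK866 plus succinate and 2728 and 2535 bp with FK866. In Control the same stretch held a peak of 1186 and 1273 bp at the start and a separate one of 1231 and 1172 bp inside the gene. Its upstream edge lay at 838 and 848 bp with FK866 plus succinate, 782 and 746 bp with FK866, and 787 and 843 bp in Control. In windows of 1 kb to either side the difference from FK866 turned to 3.95 points and that from Control to 16.4, and with the higher-scoring 50% of each list that from Control turned to 1.9. The inner part of the region hence carried the difference, as 1 peak with FK866, as a second peak in Control, and in part outside any peak with succinate.

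Rps27, a small subunit protein with a zinc finger, is a gene of under 1 kb that lies almost wholly under its peak. Its downstream edge lay at 1290 and 844 bp with FK866 plus succinate, 1644 and 1658 bp with FK866, and 1663 and 1685 bp in Control. Coverage was 45.2% and 34.2% with FK866 plus succinate, 54.2% and 54.4% with FK866, and 54.7% and 56.1% in Control. The groups did not overlap, but the 2 libraries with succinate stood far apart, and the difference from FK866 was −14.6 ± 3.65 points (SE, adjusted p = 0.247 from limma) and −9.14 without FK866 plus succinate replicate 2. Ends of Nup210l and Rab13 also lay within 2 kb of this site.

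Rps15a and Rpl6 completed the 5 largest differences, and their libraries agreed less. Rps15a had 48.4% and 52.2% with FK866 plus succinate, 64.5% and 56.2% with FK866, and 62.0% and 51.4% in Control, so that succinate and Control values overlapped. Rpl6 had 39.6% and 25.9% with FK866 plus succinate, 35.1% and 50.02% with FK866, and 45.4% and 47.8% in Control, and FK866 plus succinate overlapped with FK866. Their differences were −10.1 ± 4.56 and −9.84 ± 6.56 points (SE, adjusted p = 0.420 and 0.565 from limma). Without FK866 replicate 1 that of Rps15a was −5.94, and that of Rpl6 lay between −17.3 and −2.39 with single libraries left out. On the other side stood Rpl10 at 3.40 points, Rps9 at 2.16, Rpl39 at 1.44, Rpl36a at 1.35 and Rpl41 at 0.80. Several of these turned under another setting. Rpl10 stood at −7.90 in 1-kb windows. Without FK866 plus succinate replicate 1, Rps9 stood at −3.14, Rpl39 at −0.26 and Rpl41 at −0.06, and Rpl41 stood at −0.39 without FK866 replicate 2. Rpl10, a large subunit protein joined late in assembly, measured 53.7% and 55.8% with FK866 plus succinate, 49.98% and 52.7% with FK866, and 60.8% and 59.3% in Control. It was the gene that differed most between FK866 and Control.

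**Figure D3:**
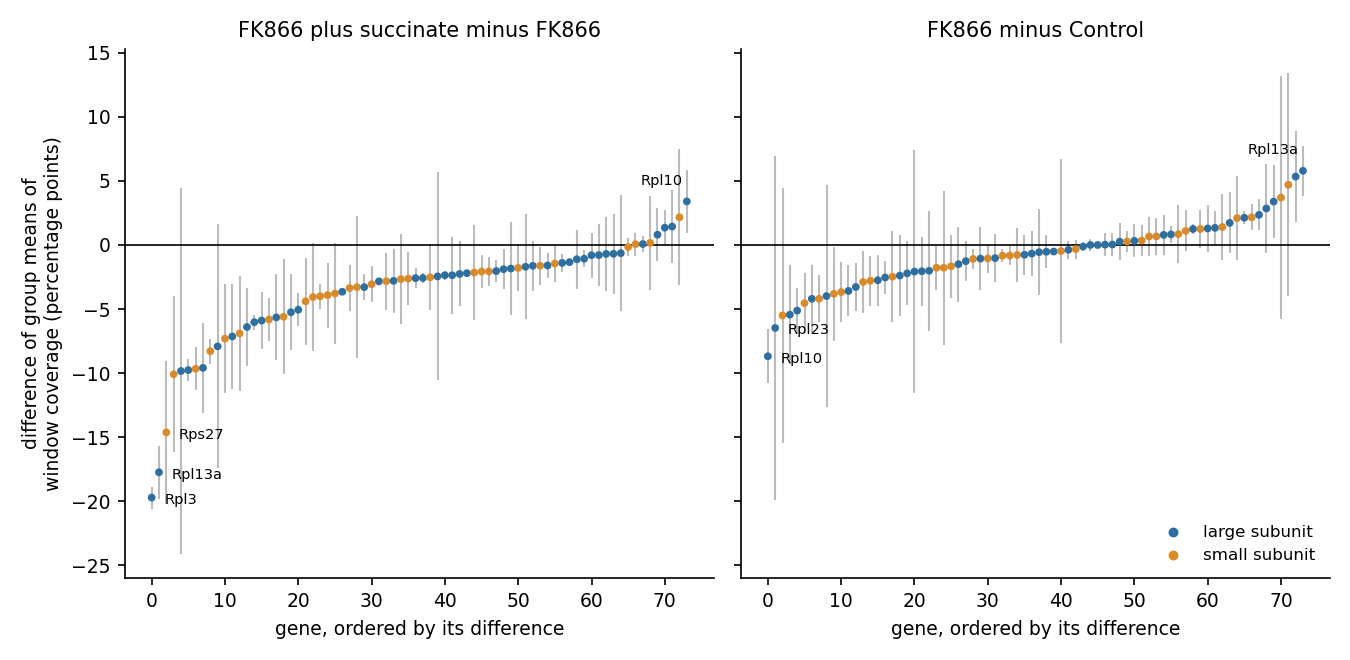
Difference of group means of window coverage in percentage points (vertical axis) for each of the 74 genes, ordered by its own difference (horizontal axis), for FK866 plus succinate minus FK866 (left) and FK866 minus Control (right), with large subunit genes in blue and small subunit genes in orange. Grey lines span the differences between single libraries of the 2 groups. On the left 66 genes lie below 0, with Rpl3, Rpl13a and Rps27 lowest. On the right 45 are counted as lower, among them Rpl24, whose group means are equal.

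**Figure D4:**
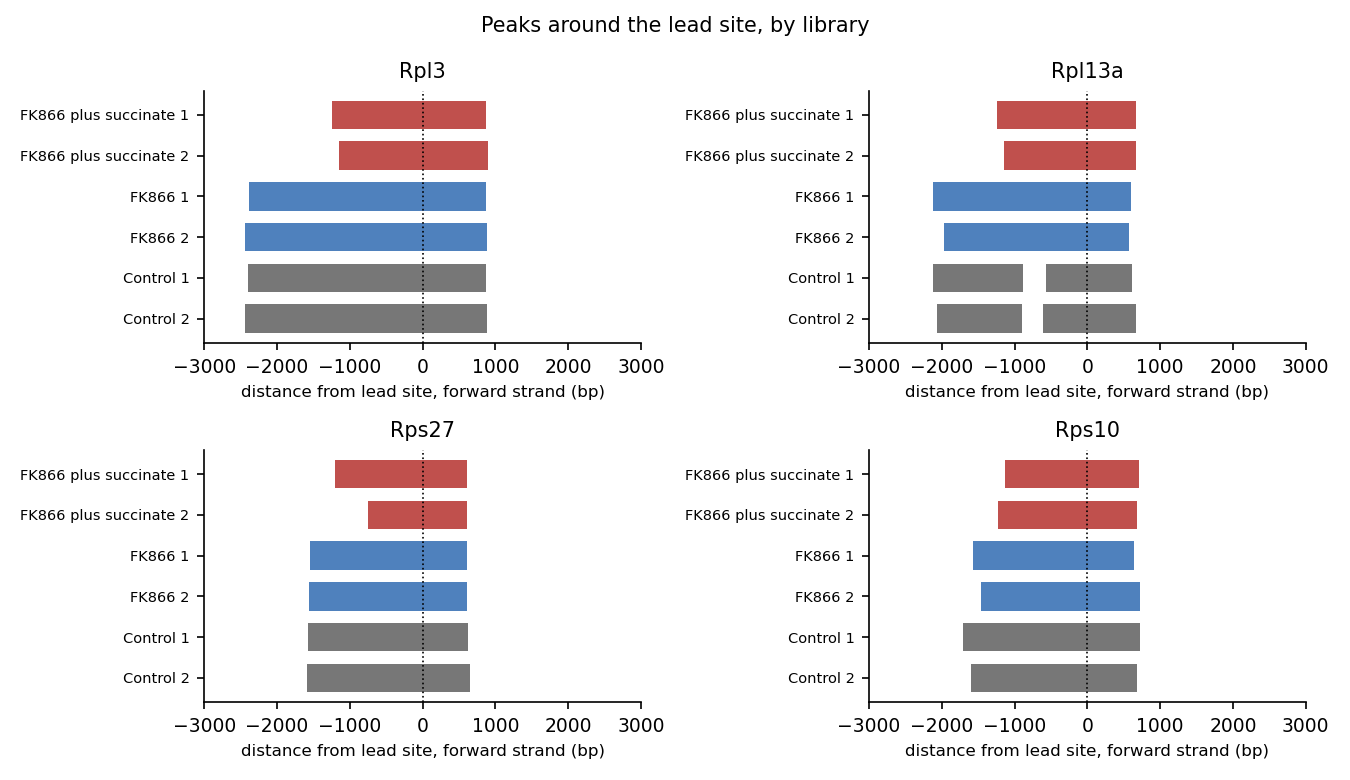
Peaks (bars, to scale) around the lead site of Rpl3, Rpl13a, Rps27 and Rps10 in each library (rows), by distance from the lead site in bp along the forward strand (horizontal axis), with FK866 plus succinate in red, FK866 in blue and Control in grey. Right edges lie close together in all libraries, while the covered stretch, which runs leftwards into the genes, is shorter with FK866 plus succinate. Rpl13a has 2 separate peaks in the Control libraries.

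The second comparison, FK866 plus succinate against Control, sets cells with both agents beside untreated cells and shares its FK866 plus succinate libraries with the first. Window coverage was lower in 67 of the 74 genes and higher in 7, with a median difference of −3.97 points. The median over all genes was −1.56 points, and 71.4% of them were lower. limma called 0 of the 74 and 0% of all genes. At an unadjusted p under 0.05 it had 27 of the 74 lower (36.5%) and 0 higher. Over all genes tested, 12.1% were lower and 263 of 15168 higher. Widths without overlap were narrower in 53 of the 74 (71.6%), against 39.5% of all genes, and wider in 1, against 7.01%. The wider one was Rpl13a, at 1908 and 1814 bp against 1186 and 1273 bp in Control, where its region held a second, separate peak. Its window coverage went the other way, at −11.95 points from Control. The downstream edge lay nearer to the start without overlap in 40 of 52 genes (background 39.4%), the upstream edge in 11 (background 22%). The median differences were −108 bp downstream and −2.50 bp upstream in the family, and −45.0 and −7.00 bp over all genes. Here too the family's median depended on the windows, at −0.79 points with 1 kb to either side, where it lay 0.81 points above all genes. Those windows largely end before the family's downstream edges. After quantile normalisation the family's median was −1.82 points.

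Rpl3 (−19.8 ± 1.08 points, SE, adjusted p = 0.0723 from limma), Rps27 (−15.7), Rpl23 (−14.4), Rpl6 (−13.8) and Rps10 (−12.0) had the largest differences from Control. Rps10, a protein of the head of the small subunit, had 46.2% and 47.4% with FK866 plus succinate, 55.5% and 54.8% with FK866, and 60.8% and 56.8% in Control. None of its groups overlapped, and its adjusted p from limma was 0.117. Its downstream edge lay at 1338 and 1423 bp with FK866 plus succinate, 1775 and 1662 bp with FK866, and 1903 and 1798 bp in Control. Rpl23, a large subunit protein that also binds the p53 regulator Mdm2, had 55.0% and 50.1% with FK866 plus succinate, 53.4% and 67.5% with FK866, and 60.6% and 73.3% in Control. Its FK866 and Control libraries stood far apart, and its adjusted p from limma was 0.415. Without Control replicate 2 its difference from Control was −8.01 points, and that of Rpl6 was −7.01 without FK866 plus succinate replicate 2. In 1-kb windows Rpl23 stood at −0.12 and Rps10 at −0.42. Rpl39 (2.78), Rpl3l (2.70, with its peak at Msrb1), Rpl5 (0.65), Rpl38 (0.46) and Rpl36a (0.29) stood at the other end. Without FK866 plus succinate replicate 2, Rpl5 turned to −2.41, Rpl38 to −1.61 and Rpl36a to −0.08, and Rpl36a stood at −1.19 without Control replicate 1. Rpl39 measured 65.8% and 62.4% with FK866 plus succinate, 63.8% and 61.5% with FK866, and 61.2% and 61.5% in Control.

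In 37 of the 74 genes both FK866 plus succinate libraries had a narrower lead peak than each of the 4 other libraries, against 3639 of 13557 genes (26.8%).

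The third comparison, FK866 against Control, addresses what NAMPT inhibition alone did. Coverage was counted as lower with FK866 in 45 of the 74 genes and as higher in 28. The 45 include Rpl24, whose FK866 and Control means were equal at 42.75%. The family's median difference was −0.62 points, against −0.04 over all genes, of which 50.8% were lower. In windows of 1 kb to either side the family's median difference was 0.00, the same as over all genes, and over the gene span plus 2 kb it was −0.31. limma called 0 of the 74 and 0% of all genes. At an unadjusted p under 0.05 it had 3 of the 74 lower (4.05%) and 1 higher. Over all genes tested, 2.77% were lower and 343 of 15168 higher. Widths without overlap were narrower in 17 genes (23.0%, background 16%) and wider in 8 (background 16.8%). Leaving out FK866 replicate 1, FK866 replicate 2 or Control replicate 1 gave 32 or 33 narrower genes (43.2% to 44.6%, against 32.6% to 33.6% of all genes). Without Control replicate 2 it was 24 (32.4%, against 30.8% of all genes). Leaving out any 1 of the 4 libraries gave 16 to 20 wider genes (21.6% to 27.0%, against 30.2% to 35.7% of all genes). Counts grow there because a group of 1 library overlaps less often by construction. Downstream edges were nearer to the start without overlap in 12 of 52 (background 14.2%) and upstream edges in 7 (background 11.9%). The median differences were −22.8 bp downstream and −0.25 bp upstream. In the main counts and with each library left out the family had more narrower and fewer wider genes than all genes did, with no test of that difference and nearly none left among narrower genes without Control replicate 2.

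The largest differences with FK866 were at Rpl10 (−8.69 ± 1.54 points, SE), Rpl23 (−6.48), Rps20 (−5.50), Rpl37 (−5.44) and Rpl17 (−5.12). Rpl10 had an adjusted p of 0.817 from limma, and in windows of 1 kb to either side its difference turned to 3.20 points. Rpl23 and Rps20 rested on single libraries. Rpl23 stood at 0.58 without FK866 replicate 1 and −0.10 without Control replicate 2, but −13.5 without FK866 replicate 2 and −12.8 without Control replicate 1. Rps20 stood at 0.04 without Control replicate 1, −1.09 without FK866 replicate 2, −9.91 without FK866 replicate 1 and −11.04 without Control replicate 2. The downstream edge of Rpl10 lay at 1059 and 1059 bp with FK866 and 1490 and 1451 bp in Control. With FK866 plus succinate that edge lay at 1247 and 1459 bp. On the other side were Rpl13a (5.79 ± 1.49, adjusted p = 0.890 from limma), Rpl7 (5.34), Rps13 (4.70), Rps15a (3.70) and Rpl3l (3.39, with its peak at Msrb1). Of these, Rps13 turned to −1.16 without Control replicate 1, against 10.6 without Control replicate 2. Rps15a turned to −1.60 without Control replicate 2 and to −0.45 without FK866 replicate 1, against 9.0 without Control replicate 1 and 7.85 without FK866 replicate 2. Rpl13a stood at 12.4 points in 1-kb windows, 19.6 with the higher-scoring 50% of each list and 1.03 over the gene span plus 2 kb. Rpl7 stood at 0 in 1-kb windows, which it filled in both groups, at 8.82 without Control replicate 1 and at 1.85 without Control replicate 2. Rpl7 covered 70.2% and 71.8% with FK866 plus succinate, 80.7% and 80.8% with FK866, and 78.9% and 71.9% in Control. Control replicate 1 was close to the FK866 libraries and Control replicate 2 close to those with succinate.

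The genes shared features that the symbol did not use. Of the 77 genes, 27 (35.1%) hold at least 1 snoRNA gene, with 54 snoRNA genes in all, against 372 of 21887 protein-coding genes (1.70%). The 27 hosts had a median difference of −3.06 points for FK866 plus succinate minus FK866, against −2.45 for the 47 other genes with a peak. From Control the medians were −4.86 and −3.05 points. For FK866 plus succinate minus FK866, the 21 genes with ETS letters and a peak had a median of −2.15 points and the 34 without them −2.47. The 28 genes with a pyrimidine run within 10 bases of the start had −2.26 points and the 27 without one also −2.26. Coverage itself was higher in genes with such a run, at 47.3% and 46.7% with FK866 plus succinate, 51.6% and 51.2% with FK866, and 52.1% and 52.0% in Control. Without one it was 44.3% and 43.8% with FK866 plus succinate, 47.0% and 48.2% with FK866, and 46.4% and 47.0% in Control. Genes with an end of a neighbour within 2 kb of the lead site had a median difference of −2.36 points (22 genes) and those without −2.64 (52 genes). None of these features was used for a test.

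Ribosomal genes that the symbol rule leaves out had peaks in all 6 libraries in 8 of 8 cases, against 61.9% of all protein-coding genes. Among them are Rplp0, Rplp1 and Rplp2 of the stalk, Rpsa, Rps3a1, Fau, and Rack1, a signalling scaffold on the small subunit. Their median difference was −4.04 points for FK866 plus succinate minus FK866, −7.18 from Control and −2.45 for FK866 minus Control, and limma called 0 of 8 in each. Rack1 had 54.4% and 57.4% with FK866 plus succinate, 68.0% and 58.2% with FK866, and 65.2% and 66.9% in Control. Fau differed little, with 36.5% and 38.6% with FK866 plus succinate, 36.6% and 36.5% with FK866, and 39.0% and 38.0% in Control. The paralogues Rpl22l1, Rpl7l1 and Rpl36al had peaks in all libraries, with a median difference of −1.01 points between FK866 plus succinate and FK866.

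Of 15 other translation genes with a 5′ TOP element, such as Eef1a1, Eef2 and Tpt1, 15 had peaks in all libraries, against 61.9% of all protein-coding genes. Their median differences were −2.83 points for FK866 plus succinate minus FK866, −3.15 from Control and 0.40 for FK866 minus Control. Of 40 genes for making ribosomes, among them RNA polymerase I subunits, Ncl, Fbl, Myc and Mtor, 40 had peaks in all libraries, against the same 61.9%. Their median differences were −2.41, −2.33 and 0.55 points in the same order. limma called 0 of these 55 genes in each comparison. At an unadjusted p under 0.05, lower coverage with FK866 plus succinate than with FK866 was found in 5 of 15 (33.3%) and in 7 of 40 (17.5%), against 11.5% of all genes. From Control it was found in 2 of 15 (13.3%) and in 6 of 40 (15%), against 12.1% of all genes and 36.5% of the ribosomal protein genes.

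The label of the cells was checked through peaks at marker genes. All 11 ILC2 markers, among them Gata3, Il1rl1, Il13 and Klrg1, had peaks in the 6 libraries, with median coverage between 64.1% and 73.4%. Peaks in all 6 libraries were found at 4 of 6 T cell markers, 2 of 4 NK cell and ILC1 markers, 1 of 3 ILC3 markers, 3 of 4 epithelial markers, 0 of 3 B cell markers and 0 of 4 myeloid markers. A peak at the lead site in all 6 libraries, a stricter measure, was found in 61.9% of all protein-coding genes. By it the T cell count was 3 of 6 and the other counts were the same. The T cell and epithelial counts thus lay to either side of the share of all genes. Markers with large differences, picked after their values were seen, were Foxp3, Eomes and Il17rb. Foxp3, the factor of regulatory T cells, was covered at 7.33% and 26.4% with FK866 plus succinate, 44.0% and 39.4% with FK866, and 26.8% and 21.3% in Control. Eomes, an NK cell factor, was covered at 41.2% and 39.7% with FK866 plus succinate, 59.8% and 61.4% with FK866, and 64.5% and 57.0% in Control. Il17rb, the IL-25 receptor of ILC2s, was covered at 73.4% and 67.7% with FK866 plus succinate, 54.9% and 61.4% with FK866, and 64.7% and 70.05% in Control. No peak was found in any library for Cd8a, Ncr1, Klrb1c, Il17a and Ms4a1. The median coverage of the T cell markers was 17.1% and 30.02% with FK866 plus succinate, 31.5% and 36.2% with FK866, and 29.5% and 27.3% in Control. That of the epithelial markers was 12.5% and 24.6% with FK866 plus succinate, 18.8% and 16.8% with FK866, and 27.8% and 17.5% in Control. Since ILC2s can carry peaks at genes of related lymphocytes, these values do not count other cells, and their part in the differences of the ribosomal protein genes was not tested.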

How the data were processed

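The data are CUT&Tag peaks of 6 libraries from cultured ILC2s, 2 for each of 3 groups, grouped by their titles. The submitters' processing notes name cutadapt 1.9, Bowtie2 2.5.0 and the assembly mm10. The authors deposited 1 narrowPeak list of 10 columns per library, and the peak caller and any input control were not stated. The deposited score, the deposited fold (ratio) and the deposited −log10 p and −log10 q of a peak are the authors' own values for that library. They ranked peaks within a list, set stricter lists and describe lead peaks, and were not tested between libraries. No counts were given, so depth sets no interval. Width can depend on depth and on the peak caller's threshold.

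Peaks on 21 chromosomes were kept and overlapping peaks merged in Python 3.11.15 (pandas 2.3.3, numpy 2.4.6). Genes came from the RefSeq table of GRCm38.p6, which gives spans without strand or exons, and strand from the RefSeq promoter table. Window coverage of genes covered in at least 2 libraries was compared with limma 3.58.1 in R 4.3.3 (lmFit, eBayes with a trend, all 6 libraries, no scaling between libraries, no block), with adjustment over all genes tested at 0.05. The fit was tested on simulated data. Groups did not overlap where both libraries of one lay beyond both of the other. The genes, the gene lists and the tests were chosen with earlier results of these data known. Genes are named where their difference was among the 5 largest or 5 smallest of a comparison, their lead peak among the 5 widest or narrowest, where a library had no peak, and where they are Rpl13a, a paralogue or a listed gene. Comparisons that share libraries are not independent. The alternatives were other windows, stricter or equal lists, another measure, quantile normalisation, no filter, a replicate block and leaving out each library.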

Additional observations from a re-analysis of the deposited data

How the results depend on the processing

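Medians are over the ribosomal protein genes with a lead site. In windows of 1 kb to either side they were −0.83 points for FK866 plus succinate minus FK866 and −0.79 for FK866 plus succinate minus Control. These lay 0.73 and 0.81 points above all genes, and FK866 minus Control gave 0.00. Such windows largely end before the family's downstream edges. After quantile normalisation the medians were −0.48 and −1.82 points. Measured over the gene span plus 2 kb they were −1.46, −1.85 and −0.31 points. Genes with their own start within 1 kb, an alternative chosen after seeing the data, gave −3.08 points from Control, −1.49 from the median of all genes. limma, which called 0 genes with the main settings, called 23 and 14 of all genes in 1-kb windows for the 2 comparisons. With peaks of q under 0.05 it called 16 and 9, with the higher-scoring 50% of each list 14 and 10, and over the gene span 11 and 24, with 11 for FK866 minus Control. With q under 0.05 and with the higher-scoring 50% it called 1 ribosomal protein gene, Rpl3, in each of the 2 comparisons. Leaving out 1 library kept the medians between −3.03 and −2.38, between −3.99 and −3.50, and for FK866 minus Control between −0.66 and −0.14 points. Narrower genes without overlap then numbered 24 to 33 for FK866 against Control, and wider ones 16 to 20 (all genes 30.8% to 33.6% and 30.2% to 35.7%). Wider ones numbered 3 to 8 for FK866 plus succinate against FK866 (all genes 16.2% to 18.1%) and 2 to 7 against Control (14.5% to 19.0%). The cause was not tested, except that 1 library overlaps less often by construction. With a replicate block the medians were −2.58, −3.97 and −0.62 points, with 0 genes called. Same-numbered libraries did not deviate together over genes (correlations 0.03, 0.02 and −0.04), and no pairing was used in the main fit. With 2 libraries a group the deviations mirror each other, so this cannot tell whether same-numbered libraries share a culture or animal. Of 457 recomputed differences of single named genes 22 had another sign than the main value or were 0. Unknown read depth limits what widths can show.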
